A study of Mus musculus with 4 samples.

Results

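The 9 genes described here encode receptors, bridging molecules and inhibitory signals of efferocytosis, the uptake of dying cells by phagocytes: Mertk, Axl, Tyro3, Timd4, Gas6, Pros1, Mfge8, Cd47 and Sirpa. The rule that picks them is a list of gene symbols and uses no measured value, although the list was made with earlier results of these data known, and all 9 were found among the 32285 features of the deposited matrices. The matrices hold droplet 3′ counts of unique molecular identifiers (UMIs, each standing for one captured transcript) from single cells of mouse aorta, and the series title names epsins, endocytic adaptor proteins, and cholesterol efflux through ABCG1 in atheroma regression. Each of the 4 groups is 1 library: WT on a normal diet, LysM-DKO on a normal diet, WT/ApoE-/- on a western diet and LysM-DKO/ApoE-/- on a western diet. Values of the 4 libraries are always given in that order. What LysM-DKO stands for is not written out in the labels. LysM is the usual name of the lysozyme promoter that drives Cre in myeloid cells, and the animals' number, age and sex are not given in the sources used here. Both western diet libraries also lack ApoE, the 2 normal diet libraries carry it, and no library separates diet from ApoE genotype.

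Dying cells expose phosphatidylserine on their surface as a signal to be eaten. Phagocytes read it directly, through receptors such as TIM-4, the product of Timd4, or through soluble proteins that link phosphatidylserine to a receptor. Gas6 and protein S link it to the receptor tyrosine kinases Tyro3, Axl and MerTK (the TAM receptors), and MFG-E8 links it to αv integrins. CD47 on a target cell binds SIRPα on the phagocyte and holds uptake back. In atherosclerotic arteries, failing clearance of dead cells is known to feed the necrotic core of the plaque.

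In GENCODE M21 on GRCm38, the build the submitters' processing notes name as mm10, Mertk lies on the plus strand of chromosome 2 from 128698956 to 128802894 and Tyro3 on the plus strand of chromosome 2 from 119797733 to 119818104. Sirpa lies on the same chromosome and strand, from 129592835 to 129632228. Axl is on the minus strand of chromosome 7 from 25757273 to 25788705, which is 6.06 Mb from Apoe, and Mfge8 is on the minus strand of chromosome 7 from 79133768 to 79149060. Pros1 (62854307 to 62929346) and Cd47 (49800533 to 49915010) lie on the plus strand of chromosome 16. Gas6 is on the minus strand of chromosome 8 from 13465374 to 13494490 and overlaps Tmem255b on the other strand. Timd4 is on the plus strand of chromosome 11 from 46810800 to 46844332. Mertk overlaps Gm14011 on the other strand and the small gene Gm23172. Sirpa has related genes elsewhere in the genome, among them Sirpb1a, Sirpb1b and Sirpb1c, and how far reads were shared with them was not tested.

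After barcodes under 1000 UMIs or over 10% mitochondrial UMIs were left out, the libraries kept 7758, 8230, 13744 and 8133 barcodes with a median of 2103 to 6761 UMIs. Between 84.55% and 97.0% of them fell into 1 of 6 classes set by marker genes that are not members. Macrophages numbered 92, 208, 939 and 135 barcodes. Their independent markers (Cd68, Csf1r and 5 others) summed to 3828, 4818, 6510 and 6889 counts per 1000000 UMIs (CPM). In smooth muscle cells the same markers summed to 51.59, 132.3, 93.97 and 15.95 CPM. Barcodes taken as endothelial by Pecam1 and Cdh5 held a smooth muscle marker list at 50.74% to 78.57% of its level in smooth muscle cells and are called the endothelial gate. Between 7.586% and 28.4% of kept barcodes met several gates. A larger part of the macrophages did: 36, 75, 531 and 85 of the 92, 208, 939 and 135 met no other gate. Pairs of libraries shared 9 to 41 kept barcodes. Levels are given in CPM throughout. Apoe in macrophages was at 7012, 5435, 8.44 and 8.55 CPM, in the order of the labelled genotypes. Epn1, an epsin gene, was at 81.7, 54.5, 52.4 and 42.8 CPM in macrophages, and 3′ counts can still see the transcript of a gene with an exon deleted. Lyz2, the lysozyme gene, was at 3696, 977.5, 4126 and 797.9 CPM there. Xist, expressed by female cells, was at 950.3 and 949.7 CPM in the normal diet libraries and under 1 CPM in the western diet ones. Diet, ApoE, sex of the cells and the Cell Ranger version therefore cannot be told apart.

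**Figure D1:**
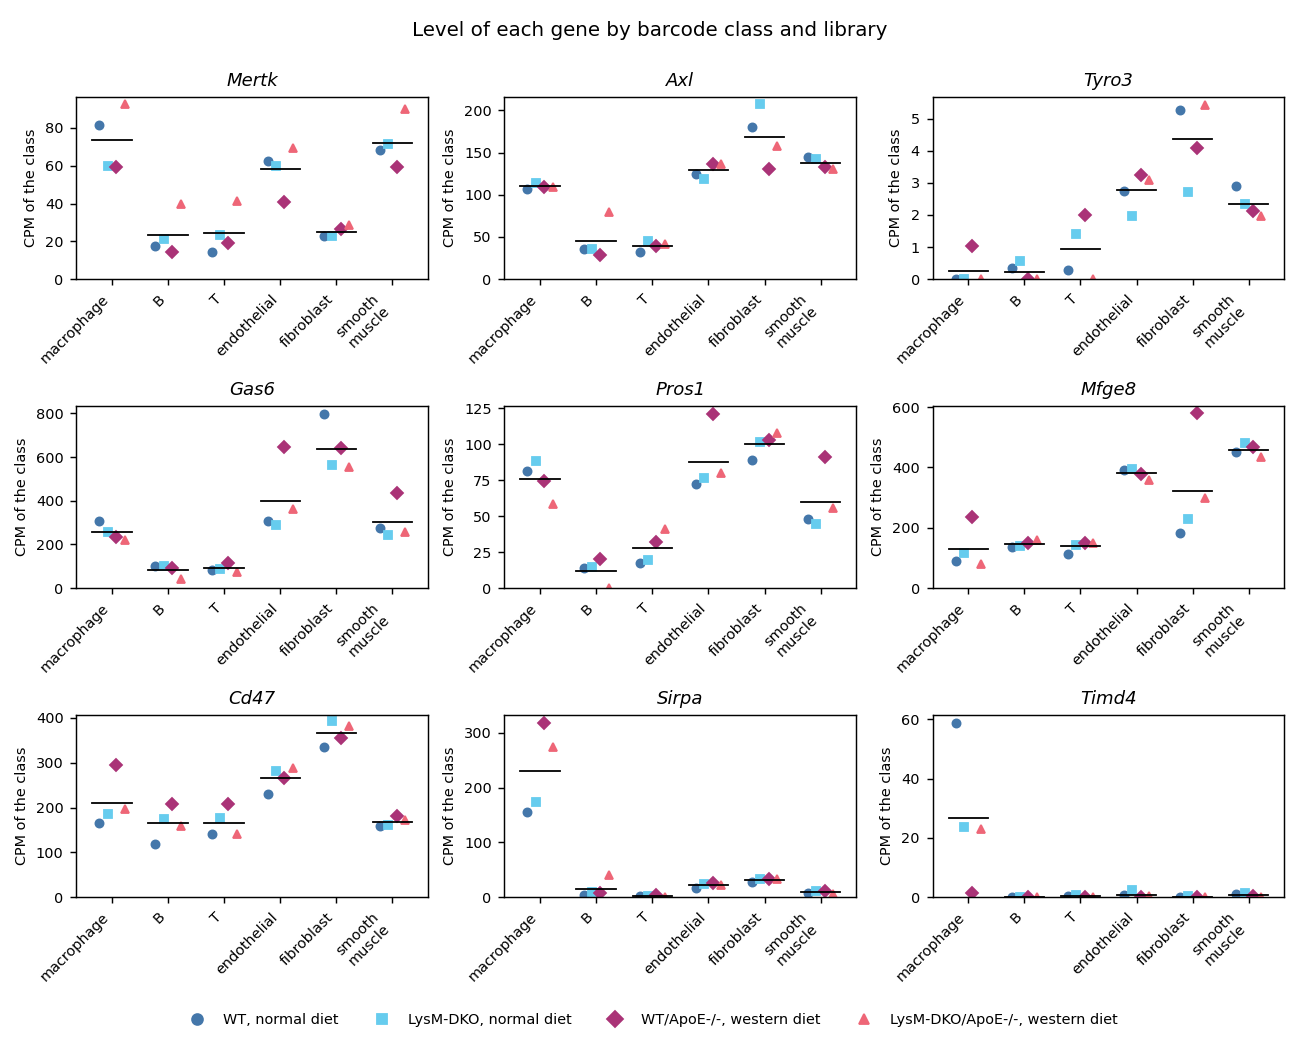
Level of each of the 9 genes in CPM (linear axis) in the 6 cell classes, with 1 point per library, coloured by group. By their means Sirpa and Timd4 stand highest in macrophages, Mfge8 in smooth muscle, and Gas6, Axl and Cd47 in fibroblasts, while the points of Mertk in macrophages and in smooth muscle overlap.

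Levels were summed per library and class into 24 sums and compared between classes with edgeR's quasi-likelihood test, with library as a block and Benjamini-Hochberg adjustment over the 13340 genes tested. A gene was called where the adjusted p was under 0.05 and a class differed from the mean of the other 5 classes by at least 2-fold. These p-values measure how far class differences vary between 4 libraries. Those libraries differ in genotype or diet, and the labels do not tie them to separate animals. Of the 9 members 8 passed the filter on low counts, and Timd4 did not. In macrophages 2 of the 8 were called higher and 0 lower, against 13.5% and 7.35% of all genes. In fibroblasts 4 were called higher and 0 lower, against 13.1% and 8.52%. In smooth muscle cells 2 were higher and 1 lower, against 9.25% and 9.75%. In the endothelial gate none was called, against 7.8% higher and 6.67% lower. Among B cells 0 were higher and 6 lower, against 11.1% and 14.8%, and among T cells 0 were higher and 5 lower, against 12.6% and 15.0%. The members' median difference (log2) was 1.03 in fibroblasts, 0.59 in smooth muscle, 0.58 in the endothelial gate, 0.50 in macrophages, -1.15 in T cells and -1.47 in B cells, where the medians over all genes lay between -0.12 and 0.02.

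**Figure D2:**
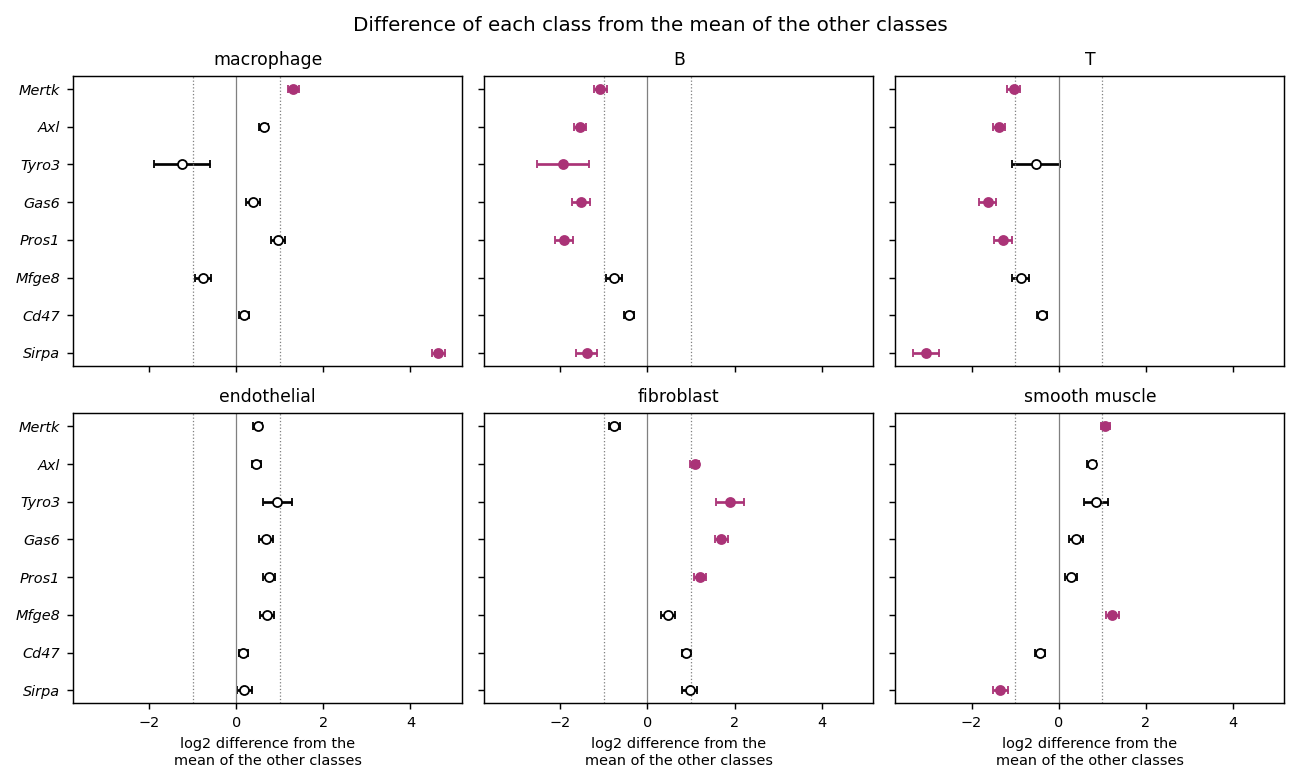
Difference of each class from the mean of the other 5 classes (log2, with standard errors) for the 8 genes that passed the filter, from the edgeR fit over 24 library and class sums. Sirpa in macrophages has the highest value at 4.64, and B and T cells lie below 0 for all 8 genes.

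Mertk, the receptor through which macrophages take up apoptotic cells with Gas6 or protein S, was as abundant in smooth muscle cells as in macrophages. Its level was 81.7, 60.0, 59.3 and 92.6 CPM in macrophages and 68.1, 71.3, 59.5 and 90.0 CPM in smooth muscle cells. The 2 ranges overlapped, with means of 73.4 ± 16.5 and 72.2 ± 12.9 CPM (SD, n = 4 libraries). Both classes were called above the mean of the others, macrophages by 1.31 ± 0.12 (log2, SE; edgeR adjusted p = 6.41e-09) and smooth muscle by 1.07 ± 0.10 (edgeR adjusted p = 1.5e-08). The difference between macrophages and smooth muscle was 0.20 (edgeR adjusted p = 0.278). Next came the endothelial gate at 58.1 ± 12.2 CPM (SD), 0.49 below smooth muscle (edgeR adjusted p = 0.0257), a gap that missed the threshold with plain totals in place of TMM scaling (0.31, adjusted p = 0.28). Fibroblasts held 25.2 CPM on average, 1.04 below the endothelial gate (edgeR adjusted p = 1.42e-05), and did not differ from T cells (adjusted p = 0.289), nor T from B cells (adjusted p = 0.951), beyond their spread.

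Marker lists of each class were measured in the other beside these levels. The smooth muscle marker list stood in macrophages at 14.33%, 16.24%, 24.65% and 12.87% of its smooth muscle level, whereas Mertk stood there at 119.9%, 84.08%, 99.78% and 102.9% of its own. The macrophage marker list stood in smooth muscle cells at 1.348%, 2.746%, 1.444% and 0.2315% of its macrophage level, whereas Mertk stood there at 83.42%, 118.9%, 100.2% and 97.14%. The macrophage value of WT on the normal diet depended on barcodes that met several gates. Without them Mertk held 0, 35, 163 and 37 UMIs in 36, 75, 531 and 85 macrophages, or 0, 111.1, 70.9 and 97.3 CPM, where the count of 0 allows up to 16.7 CPM. The macrophage and smooth muscle differences from the other classes were then 1.89 (edgeR adjusted p = 3.63e-05) and 1.51 (adjusted p = 3.31e-05). The part of RNA carried between barcodes in these levels was not tested. With each barcode thinned to 1000 UMIs, Mertk was seen in 6.52%, 8.17%, 4.79% and 14.1% of macrophages, in 6.21%, 6.97%, 5.23% and 8.65% of smooth muscle cells and in 1.68%, 1.87%, 0.994% and 0% of B cells, a class that should lack it (0 of 14 barcodes in the last library). Without thinning the shares were 29.4%, 25.5%, 17.7% and 37.8% of macrophages and 5.95%, 9.37%, 3.18% and 7.14% of B cells, at median depths of 2796 to 4715 and 1924 to 3518 UMIs.

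Axl, the TAM receptor that binds Gas6 and is known for its induction in inflammation, was spread over the 4 non-lymphoid classes. Fibroblasts held 180.3, 207.4, 130.2 and 157.4 CPM, and smooth muscle cells 145.0, 142.2, 132.5 and 130.4 CPM. Macrophages held 106.8, 113.6, 109.4 and 109.7 CPM, nearly the same value in each library (109.9 ± 2.78 CPM, SD, n = 4). Only the fibroblast difference was called (1.08 ± 0.10, log2, SE; edgeR adjusted p = 4.46e-09). In the order fibroblast, smooth muscle, endothelial gate and macrophage no neighbours differed beyond their spread (edgeR adjusted p = 0.121, 0.264 and 0.429), and the order of the endothelial gate and macrophages turned with the scaling. Macrophages stood 1.81 above B cells (edgeR adjusted p = 1.1e-08). Leaving out barcodes of several gates made the macrophage (1.08) and smooth muscle (1.40) differences pass the threshold too.

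Tyro3, the third TAM receptor, was at 5.42 CPM or less in every library and class. Fibroblasts held 15, 10, 16 and 18 UMIs, or 5.27, 2.73, 4.09 and 5.42 CPM, and the difference from the other classes was 1.90 ± 0.32 (log2, SE; edgeR adjusted p = 3.36e-05). Smooth muscle cells held 67, 40, 73 and 95 UMIs, or 2.90, 2.33, 2.12 and 1.97 CPM. Macrophages held 0, 0, 4 and 0 UMIs. In the 3 libraries with none, a count of 0 allows up to 6.28, 2.73 and 4.27 CPM. Over the 4 libraries the log2 difference of macrophages was -2.63 from fibroblasts (edgeR adjusted p = 0.00121), -1.83 from the endothelial gate (adjusted p = 0.0242) and -1.76 from smooth muscle (adjusted p = 0.0221). No 2 neighbouring classes differed in Tyro3 beyond their spread (edgeR adjusted p from 0.0606 to 0.928).

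Timd4, the phosphatidylserine receptor of resident macrophages, had its highest mean in macrophages. It held 28, 26, 5 and 16 UMIs there, or 58.6, 23.6, 1.28 and 22.8 CPM. The WT library on the normal diet was highest, the WT/ApoE-/- library was lowest, and the 2 LysM-DKO libraries lay between with nearly equal values. Means of the other 5 classes were 0.0459 to 0.857 CPM, with 69 UMIs in all in the far larger smooth muscle sums. In WT/ApoE-/- the unclassified barcodes, at 2.34 CPM from 13 UMIs, stood above the macrophages, but the counting intervals overlapped. These were 1.244 to 3.997 CPM in the unclassified barcodes and 0.4151 to 2.983 CPM in the macrophages. Without the filter on low counts macrophages stood 6.48 ± 0.49 (log2, SE) above the other classes (edgeR adjusted p = 5.73e-12). After thinning to 1000 UMIs it was seen in 4.35%, 3.85%, 0.213% and 3.70% of macrophages and in no B cell, and without thinning in 20.7%, 9.62%, 0.426% and 6.67% of macrophages.

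Gas6, the ligand of all TAM receptors, had its highest mean in fibroblasts, at 797.4, 561.6, 641.0 and 554.6 CPM. The fibroblast difference from the other classes was 1.70 ± 0.15 (log2, SE; edgeR adjusted p = 1.85e-09), and every fibroblast value was above every macrophage and smooth muscle value. In WT/ApoE-/- the endothelial gate, at 646.2 CPM, lay within the counting interval of the fibroblasts. Macrophages held 305.8, 258.0, 232.4 and 222.3 CPM, and smooth muscle cells 276.5, 243.9, 434.8 and 257.3 CPM. Smooth muscle and macrophages did not differ beyond their spread (0.02, edgeR adjusted p = 0.955), while macrophages stood 1.68 above T cells (edgeR adjusted p = 4.33e-06).

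Pros1 encodes protein S, a blood clotting cofactor that also activates Tyro3 and MerTK. Fibroblasts held 89.3, 101.5, 103.1 and 107.7 CPM and were called higher (1.21 ± 0.14, log2, SE; edgeR adjusted p = 2.1e-07). Macrophages held 81.7, 88.1, 74.4 and 58.4 CPM, with a difference of 0.96 ± 0.16 (edgeR adjusted p = 5.01e-05) that fell just short of 2-fold. Without the WT/ApoE-/- library it was 1.10, without the LysM-DKO/ApoE-/- library 1.04 and without barcodes of several gates 1.02, all past 2-fold. Smooth muscle cells held 47.9, 44.6, 91.2 and 55.5 CPM, the WT/ApoE-/- library being highest. Macrophages stood 0.56 above smooth muscle (edgeR adjusted p = 0.0222), but 0.36 with plain totals (adjusted p = 0.594). The endothelial gate held 72.1, 76.4, 120.8 and 80.0 CPM. In pairs, fibroblasts did not differ beyond their spread from the endothelial gate (edgeR adjusted p = 0.153) or from macrophages (adjusted p = 0.43). Nor did macrophages differ from the endothelial gate (edgeR adjusted p = 0.503).

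Mfge8 encodes MFG-E8, which links phosphatidylserine to integrins and is also the source of medin in the aortic wall. Its mean was highest in smooth muscle cells, at 451.8, 481.4, 466.3 and 436.1 CPM (458.9 ± 19.4, SD, n = 4), with a difference of 1.23 ± 0.15 (log2, SE; edgeR adjusted p = 5.18e-07). The endothelial gate held 392.0, 395.3, 376.6 and 358.4 CPM. Smooth muscle did not differ from it beyond their spread (0.44, edgeR adjusted p = 0.231), nor did the gate differ from fibroblasts (0.20, adjusted p = 0.584). Fibroblasts ranged from 183.5 to 579.9 CPM and macrophages from 81.2 to 236.8 CPM, and in both the WT/ApoE-/- library was highest. The macrophage difference of -0.77 was not called (edgeR adjusted p = 0.00177), and it was -1.11 without the WT/ApoE-/- library. Mfge8 stood in macrophages at 19.93%, 23.97%, 50.77% and 18.63% of its smooth muscle level, beside 14.33%, 16.24%, 24.65% and 12.87% for the smooth muscle marker list. In B cells the 2 shares were 29.89%, 28.99%, 31.74% and 36.55% for Mfge8 and 23.66%, 22.44%, 19.63% and 12.4% for the list. The part of carried smooth muscle RNA in the macrophage level of Mfge8 was not tested.

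Cd47, the inhibitory ligand present on nearly all cells, was the only one of the 8 genes tested that was called in no class. Fibroblasts held 334.2, 393.8, 355.5 and 383.1 CPM, macrophages 165.4, 185.3, 294.5 and 196.6 CPM, and smooth muscle cells 158.1, 160.4, 181.8 and 173.0 CPM. The highest difference was 0.90 ± 0.10 in fibroblasts (log2, SE; edgeR adjusted p = 1.54e-07), and without the WT/ApoE-/- library it was 1.03 and past 2-fold. The macrophage difference of 0.18 turned to -0.038 with plain totals, because TMM scaled the macrophage sums by -0.21 and the endothelial gate by 0.17 on average (log2).

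Sirpa, the CD47 receptor of myeloid cells, had the highest class difference of the 8 genes tested. Macrophages held 155.0, 174.4, 317.8 and 273.6 CPM, fibroblasts 26.7, 33.0, 33.8 and 33.7 CPM, and smooth muscle cells 6.61, 11.2, 11.2 and 4.96 CPM. The 3 ranges did not overlap. The macrophage difference was 4.64 ± 0.15 (log2, SE; edgeR adjusted p = 5.45e-17), and macrophages stood 3.06 above fibroblasts (edgeR adjusted p = 7.44e-11). Smooth muscle cells were called lower, by -1.34 (edgeR adjusted p = 1.27e-06). Sirpa in smooth muscle moved with the macrophage marker list there, which summed to 51.6, 132.3, 94.0 and 15.9 CPM. The part of carried macrophage RNA in the smooth muscle level of Sirpa was not tested. Thinned to 1000 UMIs, Sirpa was seen in 19.6%, 13.0%, 21.2% and 26.7% of macrophages and in 0.388%, 0.714%, 0% and 0% of B cells (unthinned 47.8%, 50.5%, 46.8% and 58.5%, and 1.81%, 4.28%, 1.99% and 14.3%).

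**Figure D3:**
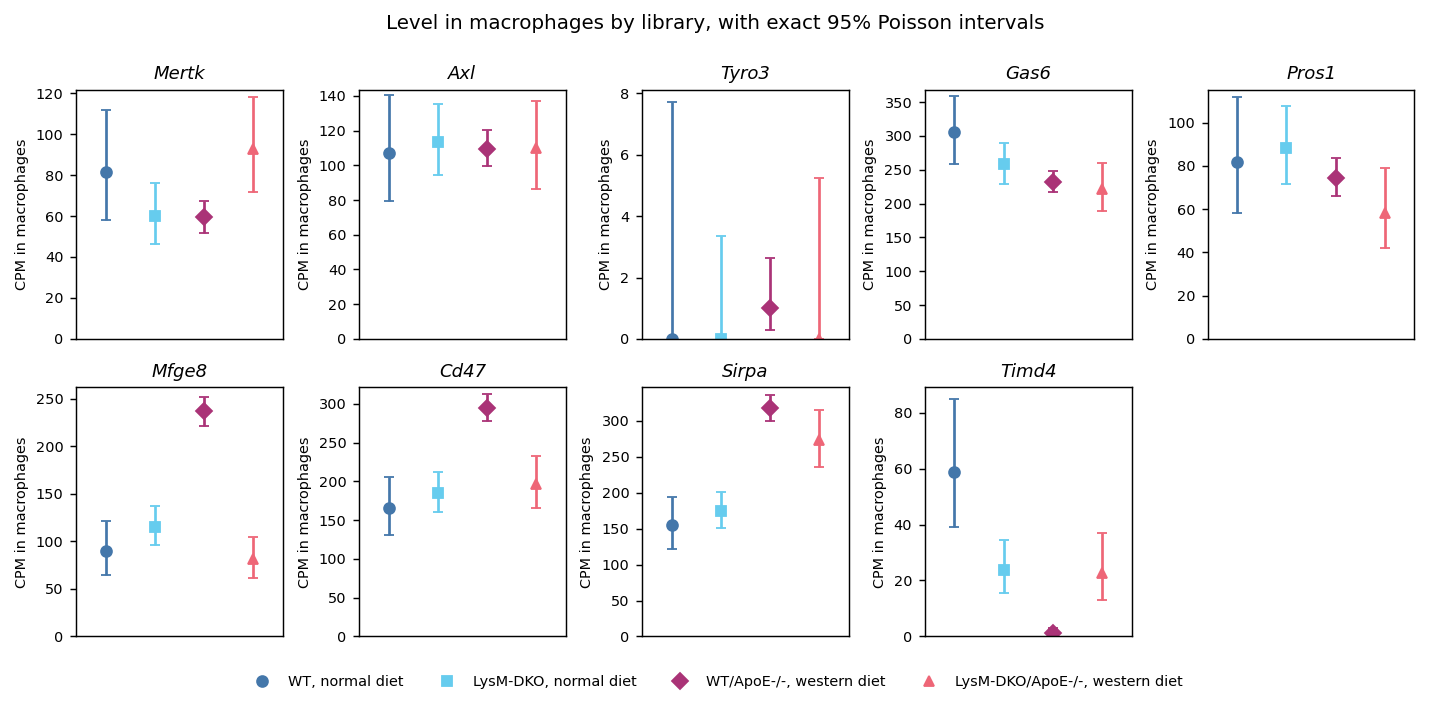
Level of each gene in macrophages (CPM) in the 4 libraries, with exact 95% Poisson intervals that cover counting error only. Timd4 is lowest and Mfge8 highest in the WT/ApoE-/- western diet library, whereas Axl lies between 106.8 and 113.6 in all 4.

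Libraries were then compared within a class. With 1 library per group no test between genotypes or diets exists, and the intervals printed with log2 ratios cover counting error only. The 4 ratios share libraries with each other, so they are given side by side and not combined. A ratio was counted where both libraries together held at least 20 UMIs, which left 8 members in macrophages. Between LysM-DKO and WT on the normal diet, 0 members were past 2-fold higher and 1 past 2-fold lower, against 6.55% and 2.39% of all genes. Between LysM-DKO/ApoE-/- and WT/ApoE-/- on the western diet, 1 was higher and 1 lower, against 4.09% and 9.09%. Between western and normal diet, 2 were higher and 1 lower in WT, against 21.0% and 8.7%, and 0 in either direction in LysM-DKO, against 7.12% and 6.42%. The medians of the members' ratios were 0.09, -0.14, -0.06 and -0.04, beside 0.05, -0.05, 0.25 and 0.11 over all genes.

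Timd4 accounted for 3 of these 6 differences. The log2 ratio of LysM-DKO to WT was -1.31 (-2.14 to -0.49) on the normal diet and 4.06 (2.64 to 5.96) on the western diet. Between diets it was -5.41 (-7.25 to -4.13) for the WT genotype and -0.03 (-1.05 to 0.90) for LysM-DKO. The ratios on the western diet rest on 5 and 16 UMIs. On the normal diet the ratio was -0.51 among macrophages with little smooth muscle RNA (fewer than 3 UMIs of Myh11 and Cnn1 together).

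The bridging molecule Mfge8 was higher in WT/ApoE-/- macrophages than in WT on the normal diet by 1.38 (0.95 to 1.87), and -1.53 (-1.96 to -1.16) in LysM-DKO/ApoE-/- against WT/ApoE-/-. Those 2 ratios were 1.12 and -1.98 among macrophages with little smooth muscle RNA. Between diets in LysM-DKO, Mfge8 went the other way, at -0.50 (-0.98 to -0.04), and at -0.92 with little smooth muscle RNA. A fibroblast marker list summed to 965.4, 1046, 3979 and 968.9 CPM in macrophages, highest in the same library as Mfge8, and its part in the Mfge8 ratios was not tested. Gas6 was at -0.40 (-0.65 to -0.13) in WT/ApoE-/- against WT on the normal diet, and at -1.33 with little smooth muscle RNA. Pros1 was at -0.58 (-1.16 to -0.05) between diets in LysM-DKO, and at -1.48 with little smooth muscle RNA. Ratios of LysM-DKO to WT moved too with little smooth muscle RNA. That of Gas6 on the western diet went from -0.06 to 0.85, and that of Pros1 on the normal diet from 0.10 to 0.96.

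Among the inhibitory pair, Sirpa was higher on the western diet in both genotypes, the ratio being 1.03 (0.70 to 1.40) for WT genotypes and 0.65 (0.35 to 0.95) for LysM-DKO genotypes. Cd47 was higher by 0.82 (0.50 to 1.18) in WT, at 0.09 (-0.24 to 0.40) in LysM-DKO, and at -0.58 (-0.85 to -0.33) in LysM-DKO/ApoE-/- against WT/ApoE-/-. Only Sirpa in WT was past 2-fold.

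The macrophage ratio of Mertk also depended on which barcodes were counted. In LysM-DKO/ApoE-/- it was higher than in WT/ApoE-/- by 0.65 (0.22 to 1.05), and by 0.49 with little smooth muscle RNA. On the normal diet the LysM-DKO ratio was -0.45 (-1.04 to 0.16) over all macrophages, but 1.50 among those with little smooth muscle RNA. Without barcodes of several gates WT held no Mertk UMI, as given above. Against that count of 0 the LysM-DKO ratio on the normal diet was 5.34, and the ratio between diets for WT genotypes was 4.68. With little smooth muscle RNA the levels were 34.5, 103.3, 68.1 and 95.1 CPM from 7, 35, 165 and 41 UMIs. Between diets the ratios also turned, from -0.48 to 0.89 for WT genotypes and from 0.63 to -0.12 for LysM-DKO genotypes. Axl had ratios of 0.08, 0.01, 0.02 and -0.05, with intervals that reached no further than 0.59 in either direction. Without barcodes of several gates its genotype ratio on the normal diet was -0.59 and its ratio between diets for LysM-DKO genotypes 0.64 (0.50 with little smooth muscle RNA).

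In the endothelial gate 0, 0, 1 and 0 of 8 members were past 2-fold in either direction, against 4.55%, 6.7%, 14.4% and 12.2% of all genes in the same order of comparisons. In fibroblasts they were 0, 0, 1 and 0 of 8, against 4.27%, 6.8%, 17.3% and 11.6%. In smooth muscle cells they were 0, 2, 1 and 2 of 9, against 7.43%, 11.4%, 14.7% and 19.7%. In B cells they were 0 of 7, 3 of 6, 0 of 7 and 4 of 7, against 6.35%, 33.3%, 12.4% and 38.5%, and in T cells 0, 1, 0 and 1 of 6, against 6.69%, 17.4%, 16.6% and 28.5%. The lymphocyte ratios past 2-fold all involve the LysM-DKO/ApoE-/- library, which has 14 B and 33 T barcodes, and rest there on 0 to 5 UMIs, with intervals that include 0.

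In fibroblasts the member past 2-fold was Mfge8, at 183.5, 227.6, 579.9 and 298.2 CPM. Its ratio between diets was 1.66 (1.52 to 1.80) for WT genotypes and 0.39 (0.26 to 0.52) for LysM-DKO genotypes, and it was at -0.96 (-1.07 to -0.85) in LysM-DKO/ApoE-/- against WT/ApoE-/-. A chondrocyte list (Acan, Col2a1 and Comp) summed to 62.6, 162.4, 4107 and 1192 CPM in the same fibroblast sums, in the same order of libraries, and its part in the Mfge8 ratios was not tested. Gas6 in fibroblasts was at -0.51 (-0.59 to -0.42) in LysM-DKO against WT on the normal diet.

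In smooth muscle cells the bridging molecules Gas6 and Pros1 were highest in the WT/ApoE-/- library. Between diets in WT they were higher by 0.65 (0.61 to 0.70) and 0.93 (0.83 to 1.03), and in LysM-DKO/ApoE-/- against WT/ApoE-/- they were at -0.76 (-0.79 to -0.72) and -0.72 (-0.79 to -0.64). In the endothelial gate Gas6 followed, at 305.7, 288.2, 646.2 and 363.2 CPM, with 1.08 (0.99 to 1.18) between diets in WT and -0.83 (-0.93 to -0.73) between genotypes on the western diet. The fibroblast marker list was highest in the same library, at 2338, 2648, 6958 and 2480 CPM in smooth muscle cells and 3543, 4189, 13290 and 6124 CPM in the endothelial gate, and its part in these ratios was not tested. Mertk in smooth muscle cells was higher by 0.60 (0.52 to 0.67) in LysM-DKO/ApoE-/- than in WT/ApoE-/-, beside 0.65 in macrophages and 0.76 (0.46 to 1.08) in the endothelial gate. In fibroblasts the same ratio of Mertk was 0.13, from 103 UMIs in WT/ApoE-/- and 96 in LysM-DKO/ApoE-/-. The smooth muscle ratios past 2-fold were those of Sirpa and Timd4, which stood at 11.2 CPM or less there.

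**Figure D4:**
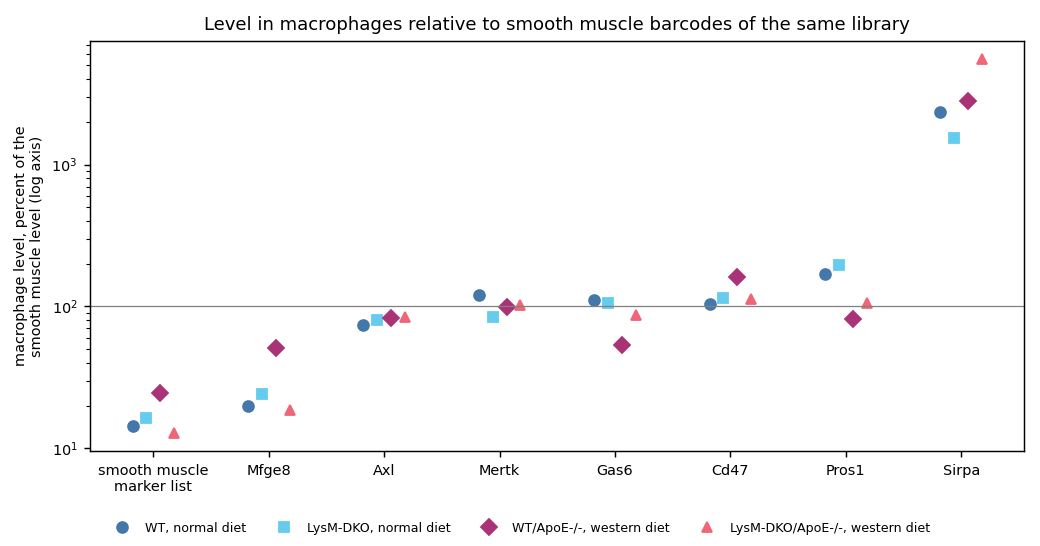
Level in macrophages as a percentage of the level in smooth muscle cells of the same library (log axis), for the genes and for a smooth muscle marker list, with 1 point per library. Mertk lies between 84.08% and 119.9%, the marker list between 12.87% and 24.65%, and Mfge8 between 18.63% and 50.77%.

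Macrophages were also split by state genes that are not members. Barcodes with at least 2 UMIs of Lyve1 and Folr2, markers of resident macrophages, numbered 34, 64, 21 and 39. Barcodes with at least 2 UMIs of Trem2 and Gpnmb, markers of lipid-laden macrophages, numbered 9, 16, 402 and 45. The rest held both pairs or neither. The gate needs UMIs, so it takes deeper barcodes more often, and the 4 libraries differ in depth.

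Gas6 was higher in Lyve1 or Folr2 macrophages in every library, at 437.5, 533.3, 985.1 and 566.8 CPM against 82.0, 127.2, 154.4 and 128.9 CPM in Trem2 or Gpnmb macrophages. The Poisson intervals of the 2 states did not overlap in any of the 4. Timd4 held 20, 17, 2 and 15 UMIs in Lyve1 or Folr2 macrophages, or 119.9, 58.5, 27.4 and 127 CPM. No Timd4 UMI was seen in the 402 Trem2 or Gpnmb barcodes of WT/ApoE-/- or in those of the other 3 libraries, which allows up to 41.0, 23.8, 1.56 and 8.59 CPM. The low Timd4 level over all WT/ApoE-/- macrophages went with 21 of 939 barcodes in the Lyve1 or Folr2 state. Within that state the WT/ApoE-/- level of 27.4 CPM rests on 2 UMIs. The parts of fewer such cells and of less Timd4 RNA per cell were not tested.

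Mertk was at 149.8, 82.6, 150.5 and 177.6 CPM in Lyve1 or Folr2 macrophages against 13.7, 31.8, 60.0 and 65.9 CPM in Trem2 or Gpnmb macrophages, from 1 and 4 UMIs in the 2 normal diet values of the latter. The intervals overlapped in LysM-DKO on the normal diet and not in the other 3 libraries. Pros1 was at 119.9, 178.9, 191.6 and 160.7 CPM against 54.7, 47.7, 65.7 and 34.4 CPM, with intervals that overlapped only in WT on the normal diet. With barcodes thinned to 1000 UMIs before the gate, 3 libraries could be compared. Gas6, Pros1 and Timd4 were then higher in Lyve1 or Folr2 macrophages in all 3, but Mertk was lower in 2 of them (75.6 against 103.2 CPM and 82.0 against 93.2 CPM). The 103.2 CPM, in LysM-DKO on the normal diet, came from 3 UMIs, so the order of Mertk there rests on few counts.

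Axl and Sirpa had the other order before thinning. Axl was at 36.0, 44.7, 68.4 and 59.2 CPM in Lyve1 or Folr2 macrophages against 191.4, 198.7, 106.4 and 131.8 CPM in Trem2 or Gpnmb macrophages. The intervals did not overlap in the 2 normal diet libraries and overlapped in the 2 western diet ones. Sirpa was at 155.8, 216.8, 232.6 and 186.1 CPM against 232.5, 310, 399.1 and 340.9 CPM, but in LysM-DKO on the normal diet at 227.4 against 102.6 CPM with little smooth muscle RNA. After thinning, WT on the normal diet had no Trem2 or Gpnmb macrophage, and neither gene kept that order in all of the other 3 libraries: in LysM-DKO on the normal diet Axl was at 42.0 against 34.4 CPM (5 and 1 UMIs) and Sirpa at 218.3 against 103.2 CPM (26 and 3 UMIs). Cd47 and Mfge8 had no common direction over the 4 libraries, but after thinning both were higher in Trem2 or Gpnmb macrophages in all 3. Cd47 was then at 100.8, 246.0 and 186.1 CPM against 172.0, 364.6 and 261.7 CPM, and Mfge8 at 67.2, 82.0 and 50.8 CPM against 68.8, 322.9 and 78.0 CPM. In LysM-DKO on the normal diet the Mfge8 values were nearly equal. There 1 UMI stood for 34.4 CPM in Trem2 or Gpnmb macrophages, so the order of both genes rests on few UMIs in that library. Acta2, a smooth muscle gene, was also higher in Lyve1 or Folr2 macrophages, at 3135, 1882, 3886 and 2360 CPM against 1258, 1335, 2757 and 1954 CPM. Among macrophages with little smooth muscle RNA Gas6 was still at 537.4, 579.4, 601.1 and 572.3 CPM against 100.6, 34.2, 89.0 and 168.8 CPM.

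**Figure D5:**
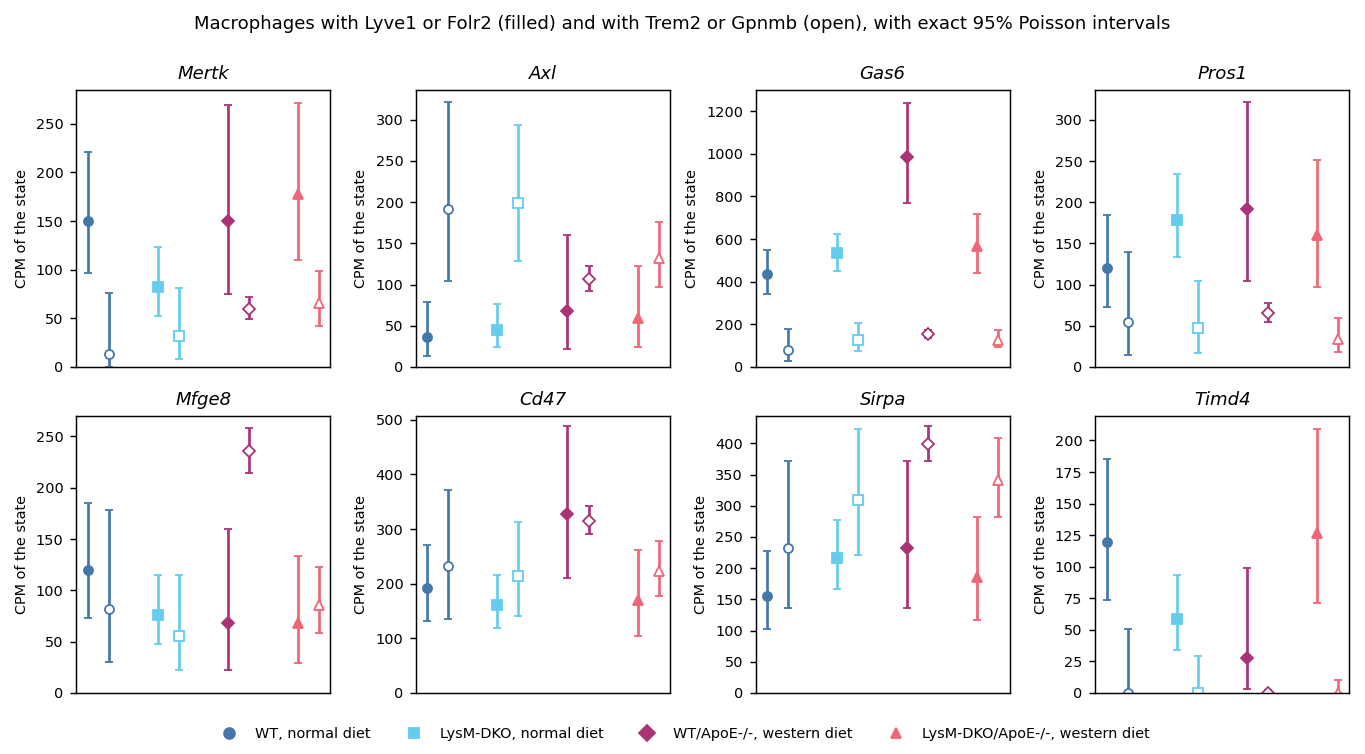
Level of 8 genes (CPM) in macrophages with Lyve1 or Folr2 (filled) and with Trem2 or Gpnmb (open) in each library, with exact 95% Poisson intervals. Gas6 and Timd4 are higher in the first state in all 4 libraries, and Axl is higher in the second, an order that thinning to 1000 UMIs did not keep in LysM-DKO on the normal diet.

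The members were set beside 77 other efferocytosis genes in 9 groups by role, of which 70 were tested. In macrophages 34 of the 70 were called higher and 3 lower, against the 13.5% and 7.35% of all genes given above, with a median of 0.96 (log2). Phosphatidylserine receptors were led by Cd300a (8.32 ± 0.41, SE; edgeR adjusted p = 9.03e-13) and Stab1 (5.98 ± 0.25, adjusted p = 5.4e-15), and 4 of 8 were higher and none lower. Of 8 integrins and scavenger receptors 3 were higher, namely Msr1 (9.31), Trem2 (7.69) and Cd36 (4.45), and Itgb3, a partner of αv, was lower (-1.36, edgeR adjusted p = 4.5e-06). Other bridging and eat-me proteins had 3 of 7 higher: Lgals3 (4.82), C4b (3.12) and Anxa5 (1.64). Find-me genes had 3 of 7 higher, with the fractalkine receptor Cx3cr1 at 6.83.

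Of 11 engulfment genes 5 were higher, among them Was (3.50) and Dock2 (2.98), which act on the actin skeleton, and the adaptor Gulp1 was lower (-1.25, edgeR adjusted p = 0.000131). Phagosome genes had 6 of 10 higher, with the oxidase subunit Cybb at 6.08, the lysosomal lipase Lipa at 3.19 and the nuclease Dnase2a at 2.85. Nuclear receptors and response genes also had 6 of 10 higher, with Il10 at 7.25, Ucp2 at 4.29, and the cholesterol exporters Abcg1 at 3.20 and Abca1 at 3.09. Of 6 don't-eat-me and SIRPα signalling genes Ptpn6, the phosphatase recruited by SIRPα, was higher (4.19, edgeR adjusted p = 1.04e-09), as were Cd274 (1.43) and B2m (1.02), and Cd24a was lower (-1.16). Of 3 sheddases Adam17, which cleaves MerTK from the surface, was higher (1.71, edgeR adjusted p = 1.92e-11).

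Fibroblasts had 11 of the 70 higher and 17 lower, against 13.1% and 8.52% of all genes. Bridging and eat-me genes had 5 of 7 higher there, with C3 at 4.24, C4b at 2.61, Thbs1 at 2.07 and Anxa1 at 1.48 (edgeR adjusted p from 5.19e-12 to 5.91e-06), beside the members Gas6 and Pros1. The scavenger receptor Lrp1 was at 2.12. Smooth muscle cells had 1 higher, Gulp1 (1.14, edgeR adjusted p = 2.96e-07), and 23 lower, against 9.25% and 9.75%. In the endothelial gate 9 were higher and 14 lower (7.8% and 6.67% of all genes), in B cells 17 and 22 (11.1% and 14.8%), and in T cells 10 and 26 (12.6% and 15.0%).

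In the library ratios of macrophages, 5 of 58, 6 of 66, 16 of 67 and 15 of 61 of these genes were past 2-fold higher, against 6.55%, 4.09%, 21.0% and 7.12% of all genes, and 1, 1, 5 and 4 lower, against 2.39%, 9.09%, 8.7% and 6.42%. Between diets, with the WT genotypes given first and the LysM-DKO genotypes next, Trem2 had ratios of 2.96 and 2.82, Abcg1 3.65 and 2.59, Lgals3 2.85 and 1.76, Lrp1 1.34 and 1.82, and Il10 -2.05 and -1.16. For the WT genotypes the receptors Cd36 (-2.50) and Stab1 (-1.60) and the complement gene C4b (-1.43) were also past 2-fold lower, and Marco held 20 UMIs on the normal diet and 0 on the western diet.

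The genes whose levels followed a member most closely over the 24 sums were found by Pearson correlation of log2(CPM + 1) among 6431 genes. The sums share libraries and classes, so these are descriptions. Mertk was closest to Itga5 (r = 0.896), Stom (0.889) and Pfkfb3 (0.856). Axl was closest to Lmna (0.942), Ctsf (0.942) and Cd81 (0.94), Gas6 to Fndc3b (0.97), Cebpd (0.941) and Tceal8 (0.926), and Pros1 to Dse (0.975), Klhl5 (0.969) and Cntln (0.963). Mfge8 was closest to Pi15 (0.955), Nudt4 (0.939) and Adgrl2 (0.934), and Cd47 to Fam102b (0.917), Cxcl12 (0.897) and Cp (0.888). Sirpa was closest to Plau (0.943), Nrp2 (0.937) and Psap (0.93), and Timd4 to the resident macrophage genes Cd163 (0.95) and Retnla (0.934) and to Oasl1 (0.941). Tyro3 was under the level minimum of 20 CPM for this comparison.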

How the data were processed

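The deposited files hold UMI counts per gene and barcode, made by the authors with Cell Ranger, whose version is 6.0.1 on normal diet and 6.1.2 on western diet per the file headers. The submitters' processing notes name Cell Ranger 6.1.2, Seurat 4.1.0 and mm10. A barcode was kept from 1000 UMIs on, unless over 10% of them were mitochondrial. Each was given the first class whose gate it met: C1qa, C1qb and C1qc with at least 5 UMIs together (macrophage), Cd79a and Ms4a1 with 2 (B), Cd3d, Cd3e and Trac with 2 (T), Pecam1 and Cdh5 with 2 (endothelial), Pdgfra and Serpinf1 with 3 (fibroblast), Myh11 and Cnn1 with 3 (smooth muscle). No doublet caller was run, and leaving out barcodes of several gates is an alternative. Counts were summed per library and class, with at least 10 barcodes behind a sum. The 14 gate genes were left out of tests.

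Class sums were compared with edgeR 4.0.16 (quasi-likelihood, TMM, library as block) in R 4.3.3, with DESeq2 1.42.0 as an alternative, after a test on simulated counts. The standard errors of edgeR differences were derived from each difference and the F statistic of its test. Library ratios add 0.5 UMIs to each count, and their intervals are exact at 95% for counting error alone. A count of 0 is read as up to 3 counts. Shares were compared after thinning to 1000 UMIs. The members and gene lists were chosen with earlier results of these data known. Named are all 9 members, up to 4 called genes per list, class and direction by size, and the 3 genes most like each member. Of the 32285 features, 32158 matched GENCODE M21. The other software was matplotlib 3.10.9, pandas 2.3.3, scipy 1.17.1, numpy 2.4.6 and Python 3.11.15. Alternatives covered scaling, filters, gates, thinning, the library block and leaving out each library. Macrophages with fewer than 3 Myh11 and Cnn1 UMIs and plain totals were added after the data were seen.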

Additional observations from a re-analysis of the deposited data

Results flagged for a closer look

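In 4 cases the LysM-DKO libraries differed from WT in opposite directions on the 2 diets with counting intervals that excluded 0 on both. Each rests on 1 library per group, and the difference between the diets was not tested. Timd4 in macrophages was at -1.31 (log2) on the normal diet and at 4.06 on the western diet with ApoE absent. The normal diet ratio of Timd4 was -0.45 without barcodes of several gates and -0.51 with little smooth muscle RNA. On the western diet 3 and 13 Timd4 UMIs were left without barcodes of several gates, too few for a ratio. Mfge8 in fibroblasts was at 0.31 and -0.96, and in smooth muscle cells at 0.09 and -0.1, a small difference that large counts make visible. Sirpa in smooth muscle cells was at 0.76 and -1.18. Macrophage markers moved with it there, and the part of carried macrophage RNA was not tested.

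Mfge8 was also high in barcodes that fell into no class, which no comparison used. It stood at 735.0 CPM in WT/ApoE-/- and at 1120 CPM in LysM-DKO/ApoE-/- on the western diet, above both normal diet libraries.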

How the results depend on the processing

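Of 666 class differences recomputed under alternatives, 632 kept direction and side of the threshold, 28 passed it anew, 2 lost it and 4 reversed. The reversed values were Cd47, macrophage minus other classes, at -0.038 with total UMIs, Axl in the endothelial gate at -0.31 without barcodes of several gates, and Tyro3 in T cells, which ran from -1.03 to 0.20 as 1 library was left out (0.13 without WT on the normal diet and 0.20 without WT/ApoE-/-). The replicate block was the library: with no replicate block, 2 members were called in macrophages, 6 in B cells, 5 in T cells, 0 in the endothelial gate, 4 in fibroblasts and 3 in smooth muscle, as with it, and no call changed. Leaving out 1 library gave 2 to 6 members in macrophages, 0 to 1 in the endothelial gate, 4 to 7 in fibroblasts, 4 to 5 in T cells and 3 to 4 in smooth muscle. The highest macrophage and fibroblast counts, 6 and 7, came without WT/ApoE-/-. Without barcodes of several gates 4 members were called in macrophages and 2 in the endothelial gate, and RLE factors, 2000 UMIs, 20% mitochondrial UMIs or total UMIs gave 1 there. Counts of members past 2-fold were small and moved by 1 or 2 members, and the members behind a count changed too. For the genotype ratio of macrophages on the normal diet, Timd4 (-0.45) dropped out without several gates. Mertk (5.34, against 0 UMIs in WT) and Pros1 (1.14) came in. With little smooth muscle RNA, Mertk (1.50) took the place of Timd4 (-0.51). Between diets in WT without several gates, Gas6 (-1.20) and Mertk (4.68) came in, and Timd4 had too few UMIs for a ratio. In macrophages on the normal diet the genotype count went from 1 to 2 without several gates, on the western diet from 2 to 1 with 2000 UMIs, without several gates, with little smooth muscle RNA or with 50 UMIs over both libraries, and between diets in LysM-DKO from 0 to 2 without several gates and to 1 with little smooth muscle RNA or equal weight per barcode. In the endothelial gate, in the order of comparisons used above, 0 became 1 with 10 UMIs, 0 became 1 without several gates, 1 became 3 without several gates and 0 became 1 with 10 UMIs. In fibroblasts 0 became 1 with equal weight in 3 comparisons, and without several gates or with median-ratio scaling between genotypes on the western diet. In smooth muscle 0 became 1 with equal weight on the normal diet, 2 became 1 with 2000 or 50 UMIs on the western diet, 1 became 2 with equal weight and 0 with 50 UMIs between diets in WT, and 2 became 1 with 50 UMIs in LysM-DKO. Members higher in Trem2 or Gpnmb macrophages fell from 2 to 1 with a gate of 1 UMI or little smooth muscle RNA, and after thinning the 2 were Mfge8 and Cd47 in place of Axl and Sirpa. The cause of these moves was not tested. Of 40 neighbouring class pairs, 4 changed order and 5 changed side of the threshold with plain totals. Of 1060 library ratios 92 moved beyond their counting interval. Tyro3 and Timd4 rest on few UMIs, and no group has a second library.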

Other observations

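Barcodes of no class were split by chondrocyte genes after the Mfge8 values above had been seen. Those with at least 2 UMIs of Acan, Col2a1 and Comp, genes of the cartilage matrix, numbered 9, 10, 404 and 31, or 0.815%, 0.879%, 19.0% and 12.7% of the unclassified barcodes. Their Mfge8 level was 345.7, 225.4, 1684 and 2627 CPM, from 14, 8, 3152 and 946 UMIs. The 2 western diet values had Poisson intervals of 1626 to 1744 and 2462 to 2800 CPM, above the Mfge8 level of any smooth muscle sum. Unclassified barcodes with Lum or Dcn but without those genes held 159.6, 214.0, 295.8 and 140.2 CPM, and the remaining ones 131.5, 188.5, 152.6 and 129.7 CPM. Whether these barcodes come from cartilage-like cells of the vessel wall or from tissue taken with the aorta was not tested.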
